A study of Rattus norvegicus with 8 samples.

Results

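The genes described here are 10 transcripts of antigen presentation to CD4 T cells: the class II chains RT1-DMa, RT1-DMb, RT1-Ba, RT1-Bb, RT1-Da and RT1-Db1, the invariant chain Cd74, the transactivator Ciita, and the costimulatory ligands Cd80 and Cd86. They were found by symbol in a table of 32623 rat genes. All 10 had exactly 1 row, and all 10 passed the filter on low counts that left 16715 genes for testing. RNA from rat lung tissue had been sequenced in 4 libraries of a group given monocrotaline (MCT), a plant alkaloid used to model pulmonary hypertension, and in 4 control libraries. The labels name no strain, age, sex, dose or time after treatment, and do not say that libraries came from separate animals, so the tests gauge differences against library-to-library spread only, and that spread may be partly technical.

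Class II molecules carry peptides made in endosomes to the cell surface, where CD4 T cells read them. A classical molecule is a dimer of an alpha and a beta chain. RT1-Ba pairs with RT1-Bb (the rat relative of HLA-DQ), and RT1-Da with RT1-Db1 (the relative of HLA-DR). Cd74 escorts the new dimer and blocks its groove. RT1-DMa and RT1-DMb form the catalyst that exchanges the last piece of Cd74 for a peptide. Ciita switches the whole set on: it docks on factors of the RFX, CREB and NF-Y families, which sit on the X and Y boxes of class II promoters. Cd80 and Cd86 give the second signal that a T cell needs, by binding its receptors Cd28 and Ctla4. In lung, class II is known from dendritic cells, macrophages, B cells and alveolar type 2 cells.

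The promoters are shown first, because X and Y boxes are what class II promoters are known for. RefSeq promoter windows (GRCr8 build, 250 bases before to 50 after each start) were present for 8 of the 10 genes, all but RT1-DMb and Ciita. A core of the X box was searched as a G, 2 bases of any kind, AC, 1 base of any kind and GATG, and the core of the Y box as ATTGG, each on both strands. The X letters were chosen with these promoters in view. RT1-DMa, RT1-Bb, RT1-Da and RT1-Db1 held the X core followed on the same strand by the Y core after 22 or 23 bases. That order, with a gap of 10 to 40 bases, was found in 31 of 33469 rat promoter windows (0.0926%). The genes holding it also include the class II genes RT1-DOb and RT1-Db2, the class I genes RT1-CE3, RT1-CE5, RT1-CE10 and RT1-M3-1, and genes outside the MHC, so it is not particular to class II. The X core alone was in 2.84% of windows and the Y core alone in 37.5%. RT1-Ba held the Y core without the X core as spelled here, and Cd74 held the Y core in the opposite orientation. Of the costimulatory genes, 1 of 2 Cd80 windows held a Y core, and the Cd86 window held neither. A match describes letters, not binding. Capitals mark the matches.
RT1-DMa: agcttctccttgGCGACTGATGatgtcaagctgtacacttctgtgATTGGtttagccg
RT1-Bb: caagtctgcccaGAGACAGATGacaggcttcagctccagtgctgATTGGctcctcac
RT1-Da: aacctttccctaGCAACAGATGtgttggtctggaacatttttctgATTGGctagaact
RT1-Db1: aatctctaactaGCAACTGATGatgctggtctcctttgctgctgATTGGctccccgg
RT1-Ba: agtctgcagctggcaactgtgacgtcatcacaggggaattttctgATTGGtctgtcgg
Cd74: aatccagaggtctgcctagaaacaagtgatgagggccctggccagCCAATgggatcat

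These stretches lie on GRCr8 at chr20:4712387-4712444 (minus strand) for RT1-DMa, chr20:4604167-4604223 (minus) for RT1-Bb, chr20:4515321-4515378 (plus) for RT1-Da, chr20:4560230-4560286 (minus) for RT1-Db1, chr20:4576969-4577026 (plus) for RT1-Ba and chr18:56526972-56527029 (plus) for Cd74. In the 4 promoters with both cores, the X core began 82 to 112 bases before the start of the gene. All coordinates below are those of the deposited table, on Rnor_6.0.

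In MCT lungs, 6 of the 10 genes were higher and none was lower. Those higher were RT1-DMa, RT1-Bb, RT1-Da, RT1-Db1, Cd80 and Cd86. By edgeR's quasi-likelihood test, 11.0% of all tested genes were called higher (adjusted p under 0.05) and 9.45% lower. RT1-DMb, RT1-Ba, Ciita and Cd74 had positive log2 fold changes that did not pass the threshold. The median log2 fold change of the 10 was 0.75, against 0.03 over all genes tested. At an unadjusted p under 0.05, 9 of the 10 were higher and none was lower. That limit is looser for all genes too: RT1-DMb, at an unadjusted edgeR p of 0.0487, ranked 5607 by p of 16715 genes tested. At least 5607 genes, higher or lower, thus passed it. DESeq2 called 9 higher and limma 5, and neither called any lower. Over the alternatives tried, DESeq2 and limma among them, the number of all genes called higher ran from 1191 to 2266. It was 1845 with the fit used here. FPKM values (fragments scaled to transcript length and library size) of the groups did not overlap for 6 of the 10, namely RT1-DMa, RT1-DMb, RT1-Da, RT1-Db1, Cd80 and Cd86, with MCT higher in each. That was so for 13.3% of all tested genes, and the reverse (MCT lower) for 11.7%.

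**Figure D1:**
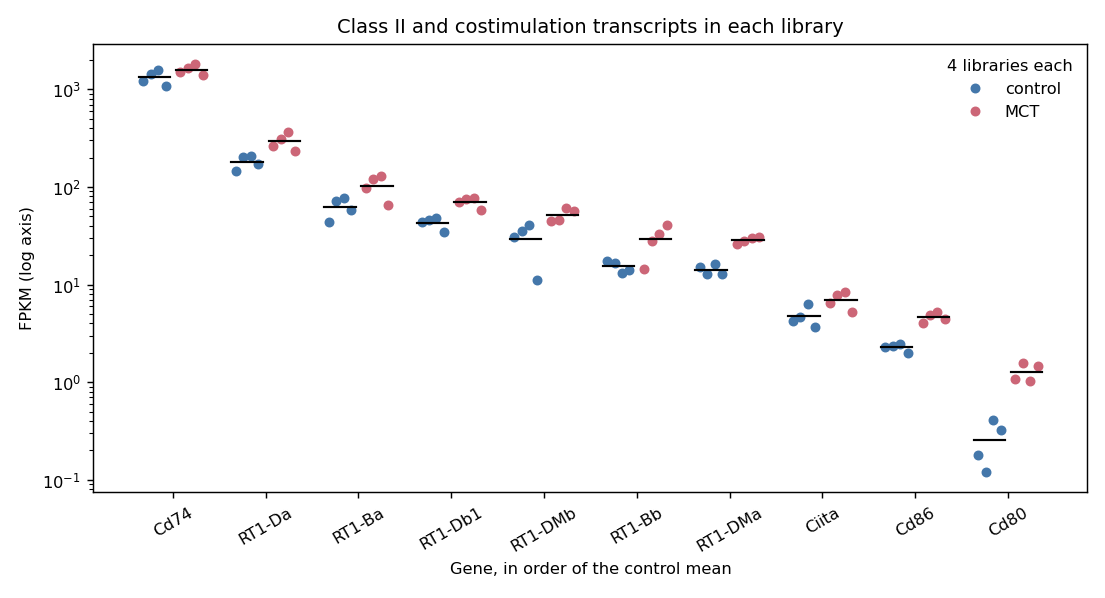
FPKM on a log axis (y) of the 10 genes (x, in order of the control mean) in 4 control and 4 MCT libraries, 1 point each in order of replicate number from left to right, with black bars at the group means. Cd74 sits at 1090 FPKM and above, Cd80 at 1.56 and below, and the groups are apart for RT1-DMa, RT1-DMb, RT1-Da, RT1-Db1, Cd80 and Cd86.

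FPKM is scaled to length, so levels can be set beside each other, as far as annotated lengths and the placing of reads are right. In control lungs the order of mean FPKM was Cd74 (1330 ± 221, SD, n = 4), RT1-Da (182 ± 28), RT1-Ba (63 ± 15.1), RT1-Db1 (43.1 ± 5.95), RT1-DMb (29.6 ± 12.9), RT1-Bb (15.4 ± 2.08), RT1-DMa (14.2 ± 1.7), Ciita (4.72 ± 1.11), Cd86 (2.28 ± 0.201) and Cd80 (0.258 ± 0.132). The order of the means was the same in MCT lungs. Neighbours whose libraries overlapped in both groups were RT1-Ba and RT1-Db1, RT1-Db1 and RT1-DMb, and RT1-Bb and RT1-DMa, and in the controls also RT1-DMb and RT1-Bb. The invariant chain was thus far above any chain it escorts, and in both groups each alpha chain was at a higher mean FPKM than its beta partner, except in the DM pair. For RT1-Ba and RT1-Bb that order rests partly on the length scaling. In read pairs RT1-Bb was above RT1-Ba in control 1 (1085 against 919) and MCT 4 (3115 against 1688), and below it in the other libraries.

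Both costimulatory ligands rose, and all MCT libraries were above all controls for each. Cd80 (B7-1, ENSRNOG00000001527, chromosome 11, 64827635 to 64855353) was at 0.18, 0.12, 0.41 and 0.32 FPKM in controls 1 to 4 and at 1.07, 1.56, 1.03 and 1.47 in MCT 1 to 4. Every MCT library was above every control library, with a wide gap between 0.41 and 1.03 FPKM. Its log2 fold change, MCT minus control, was 2.31 (SE 0.38, edgeR adjusted p 0.00348). Cd80 was the scarcest member: its counts stood for 8 to 21 read pairs in control libraries and 56 to 123 in MCT libraries, so the size of its fold change is loosely fixed, and it was 0.86 with limma on log2(FPKM + 1).

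Cd86 (B7-2, ENSRNOG00000038835, chromosome 11, 67082193 to 67118795) is the ligand that resting antigen-presenting cells already carry. It was at 2.3, 2.37, 2.45 and 1.99 FPKM in the controls and at 4.07, 4.88, 5.19 and 4.4 in MCT. The controls were tightly grouped, and all MCT libraries were above them. The log2 fold change was 1.02 (SE 0.16, edgeR adjusted p 0.00264). Both ligands stayed called under every alternative tried, with adjusted p of at most 0.0136 for Cd80 and 0.0123 for Cd86.

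Among the catalyst chains, RT1-DMa rose from 14.2 ± 1.7 to 28.7 ± 2.03 FPKM (SD, n = 4). RT1-DMa (ENSRNOG00000047854, chromosome 20, 3935529 to 3938915) was at 15, 12.8, 16.3 and 12.9 FPKM in controls 1 to 4 and at 26.3, 27.8, 30.2 and 30.6 in MCT 1 to 4. The spread within each group was small beside the gap between them. Its log2 fold change was 1.01 (SE 0.10, edgeR adjusted p 0.000485), rank 85 by p of all genes tested.

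Its partner RT1-DMb (ENSRNOG00000049491, chromosome 20, 3945601 to 3952846) was at 30.9, 35.4, 40.9 and 11.2 FPKM in the controls and at 44.5, 46.0, 60.9 and 56.9 in MCT. The groups did not overlap, but control 4 stood far under the other controls. The log2 fold change was 0.80 (SE 0.35, edgeR adjusted p 0.145). Without control 4 it was 0.53 and passed the threshold (adjusted p 0.0418, range over all alternatives 0.0283 to 0.276). In control 4 RT1-DMa was not low, so the ratio of RT1-DMa to RT1-DMb was 1.15 there, against 0.363 to 0.606 in the other 7 libraries.

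Of the classical chains, RT1-Da, RT1-Db1 and RT1-Bb rose. RT1-Da (ENSRNOG00000032844, chromosome 20, 4127644 to 4132616) was at 146, 201, 207 and 173 FPKM in the controls and at 262, 312, 366 and 232 in MCT. Its beta partner RT1-Db1 (ENSRNOG00000033215, chromosome 20, 4087618 to 4097190) was at 43.7, 46.1, 48.1 and 34.6 in the controls and at 70.8, 75.2, 76.7 and 57.9 in MCT. For both chains all MCT libraries were above all controls, and MCT 4 was the lowest of the MCT libraries. The log2 fold changes were 0.68 (SE 0.16, edgeR adjusted p 0.0176) for RT1-Da and 0.70 (SE 0.13, adjusted p 0.00653) for RT1-Db1. The call of RT1-Da was lost without control 4 (adjusted p 0.0515), without MCT 2 (0.0516) or without control 4 and MCT 1 (0.0545), within a range of 0.000568 to 0.0545 over all alternatives.

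RT1-Ba (ENSRNOG00000000451, chromosome 20, 4066132 to 4070721) was at 44.0, 72.0, 77.8 and 58.4 FPKM in the controls and at 96.6, 120, 128 and 65.9 in MCT. MCT 4 lay inside the control range and the other MCT libraries above it. The log2 fold change was 0.70 (SE 0.24, edgeR adjusted p 0.0708). Without MCT 4 it was 0.86 (adjusted p 0.0225, range over all alternatives 0.0167 to 0.196).

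RT1-Bb (ENSRNOG00000032708, chromosome 20, 4039413 to 4049711) showed a different order of MCT libraries. It was at 17.5, 16.8, 13.1 and 14.2 FPKM in the controls and at 14.4, 27.7, 32.9 and 40.9 in MCT. Here MCT 1 lay inside the control range, and MCT 4, the lowest MCT library for RT1-Ba, was the highest. The log2 fold change was 0.90 (SE 0.27, edgeR adjusted p 0.0468), the weakest call of the 6. It was lost when any 1 library other than MCT 1 was left out (adjusted p 0.0745 to 0.113), and over all alternatives the adjusted p ran from 0.00187 to 0.145. The ratio of RT1-Ba to RT1-Bb, the 2 chains of 1 dimer, was 6.69 in MCT 1 and 1.61 in MCT 4, and 2.51 to 5.89 in the controls. Class II chains differ between rat strains, and reads from an allele unlike the reference can be placed less well; this was not tested, and the labels do not name a strain.

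**Figure D2:**
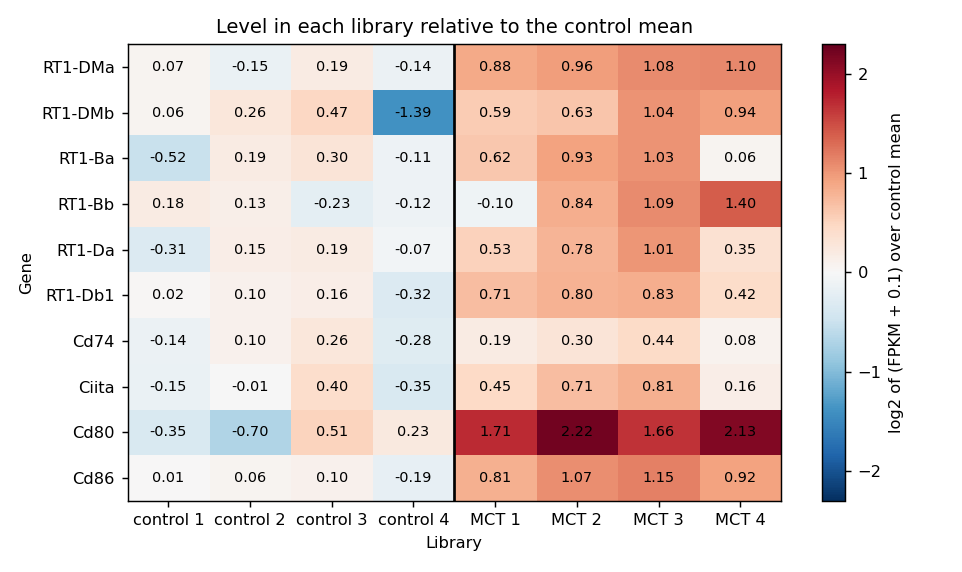
log2 of each library's FPKM + 0.1 over the control mean (colour and printed value) for the 10 genes (rows) in the 8 libraries (columns, controls left of the black line). Control 4 is at -1.39 for RT1-DMb and MCT 1 at -0.10 for RT1-Bb, each unlike the other libraries of its group.

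Cd74 and Ciita changed least. Cd74 (ENSRNOG00000018735, chromosome 18, 56071478 to 56080849) was at 1209, 1425, 1586 and 1090 FPKM in the controls and at 1515, 1638, 1805 and 1405 in MCT. The ranges overlapped. Its log2 fold change was 0.26 (SE 0.14, edgeR adjusted p 0.237), and no alternative brought the adjusted p under 0.124. Ciita (ENSRNOG00000002659, chromosome 10, 5213350 to 5260608) was at 4.25, 4.68, 6.27 and 3.67 FPKM in the controls and at 6.48, 7.76, 8.36 and 5.27 in MCT. Control 3 was above MCT 4, and otherwise the groups were apart. The log2 fold change of Ciita was 0.56 (SE 0.19, edgeR adjusted p 0.0712). It passed the threshold without control 3 (adjusted p 0.0268) or without MCT 4 (0.0421), within a range of 0.0132 to 0.172 over all alternatives.

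Apart from the effect of an added constant, ratios of 2 genes within a library do not depend on how libraries are scaled to each other. For 8 pairs (partner chains, catalyst and client, transactivator and target, the costimulatory ligands), the mean log2 ratio of FPKM + 0.1 was compared between groups with a two-sided exact permutation test, where the smallest p that 4 against 4 libraries allow is 0.0286. Cd74 stood at 8.26, 7.08, 7.66 and 6.30 times RT1-Da in the controls and at 5.78, 5.24, 4.93 and 6.04 times in MCT. The groups did not overlap, and the log2 ratio was lower by 0.41 in MCT (difference -0.41, exact permutation p 0.0286, adjusted over 8 pairs 0.114). The ratio of Cd86 to Cd80, with 0.1 FPKM added to both, was 8.57, 11.2, 5 and 4.98 in the controls. In MCT it was 3.56, 3, 4.68 and 2.87, again without overlap (log2 difference -1.02, exact permutation p 0.0286, adjusted 0.114). With so few Cd80 reads the added constant matters here: the difference was -0.35 with a constant of 0.5 and -1.43 with none. Neither ratio passed after adjustment, but with this smallest p and 8 pairs an adjusted p can fall under 0.05 only where at least 5 pairs reach it, so that outcome says little.

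The ratio of RT1-Da to Ciita was 32.5 to 45.9 in the controls and 39.8 to 43.3 in MCT (log2 difference 0.12, exact permutation p 0.371, adjusted 0.743). A p of this size does not show that a ratio was unchanged. The ratio of RT1-DMa to RT1-Da differed by 0.33 on the log2 scale (exact permutation p 0.171, adjusted 0.457). For RT1-DMa to RT1-DMb, RT1-Ba to RT1-Bb, RT1-Da to RT1-Db1 and RT1-Ba to RT1-Da the differences were 0.06, -0.13, -0.02 and 0.01, with exact permutation p of 0.886 to 0.943.

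**Figure D3:**
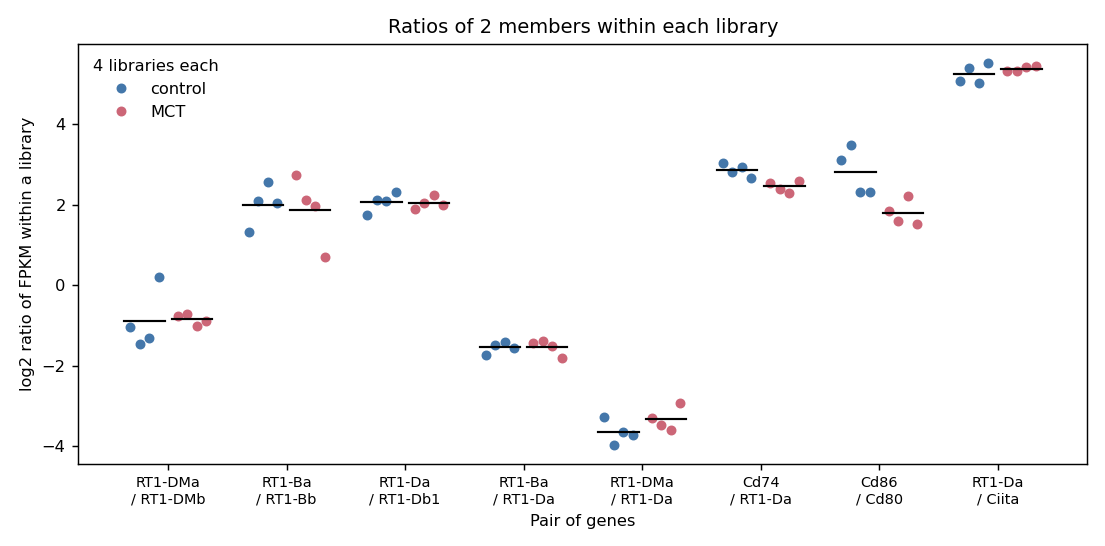
log2 ratio of FPKM + 0.1 of 2 genes within a library (y) for 8 pairs (x), 4 control and 4 MCT libraries as points and group means as black bars. Cd74 over RT1-Da and Cd86 over Cd80 are lower in all MCT libraries than in any control library, while RT1-Da over Ciita has a mean log2 ratio of 5.25 in control and 5.37 in MCT.

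Library-to-library variation inside the groups was shared by many, but not all, pairs of the genes. Deviations of log2 CPM from the group means were compared over the 8 libraries, as a description, since all points share the same libraries and scaling. Ciita and Cd74 varied together (Pearson r 0.94), as did RT1-Ba and RT1-Da (0.96), RT1-Db1 and Ciita (0.89) and RT1-Da and Ciita (0.82). Cd86 went with Cd74 (0.85). Cd80, with its few read pairs, did not go with the others (r -0.26 to 0.39), nor did RT1-Bb (-0.30 to 0.38). RT1-DMa went with RT1-DMb (0.69) but little with RT1-Ba (-0.06), RT1-Da (0.04) or RT1-Db1 (0.29). RT1-DMb was at 0.21 with RT1-Ba and 0.30 with RT1-Da, against 0.71 with RT1-Db1. The median r over all pairs was 0.44. Among genes outside the 10, those whose deviations were most like Cd74 were Cd300e (r 0.965), a receptor of monocytes, Vasp (0.964), an actin regulator, Atp13a1 (0.945), Clasp1 (0.940), a microtubule regulator, and Cxcl16 (0.934), a chemokine of antigen-presenting cells. Of these, Cxcl16 was called higher in MCT (log2 fold change 0.43, edgeR adjusted p 0.0311).

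The 6 class II chains lie within 197 kb of chromosome 20 (3935529 to 4132616). Another 6 tested genes lie in that interval: the proteasome subunits Psmb8 and Psmb9 and the peptide transporters Tap1 and Tap2, which serve class I presentation, RT1-DOb, which forms an inhibitor of the DM catalyst, and AABR07072809. None of these 6 was called by edgeR, DESeq2 or limma, and none had an unadjusted p under 0.05. Tap1 was at 17.7 to 31.8 FPKM in the controls and 17.3 to 25.3 in MCT (log2 fold change -0.15, SE 0.19). Psmb8 was at 20.1 to 43.2 and 22.98 to 39.97 FPKM (0.10, SE 0.27). The inhibitor chains RT1-DOb (0.37, SE 0.25) and RT1-DOa (0.16, SE 0.23) did not pass the threshold. Of the list of other class II chains, RT1-DOa, RT1-DOb and RT1-Ha were tested, none was called by edgeR, DESeq2 or limma, and none had an unadjusted p under 0.05. RT1-Db2, a near copy of RT1-Db1, did not pass the filter, and the labels do not say how reads shared by such copies were divided.

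The endosomal enzymes that cut antigen and Cd74 were higher more often than not. Of 8 tested, 6 were called higher (Ctss, Ctsb, Ctsd, Ctsz, Lgmn and Ifi30) and none lower, with a median log2 fold change of 0.76; Ctsl (0.25) and Ctsh (0.41) did not pass, and leaving out 1 library gave 5 to 7. All 8 had an unadjusted p under 0.05, DESeq2 called 7 higher and limma 6, and neither called any lower. Ctss, the cathepsin that trims Cd74 in antigen-presenting cells, was at 45.5, 54.7, 85.2 and 59.2 FPKM in the controls and at 134, 175, 138 and 121 in MCT. The groups were well apart (log2 fold change 1.21, SE 0.19, edgeR adjusted p 0.00341). Ifi30, the thiol reductase that opens disulphide bonds of antigens, went from 68.3 ± 13.6 to 127 ± 22.5 FPKM (SD, n = 4; edgeR adjusted p 0.00599). Lgmn, an asparagine-specific protease, went from 76.7 ± 3.28 to 121 ± 19.5 FPKM (edgeR adjusted p 0.00444). These enzymes also serve general lysosomal breakdown.

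Of 7 tested factors that bind class II promoters, edgeR called 1 higher and none lower, and at an unadjusted p under 0.05, 1 was higher and 1 lower. The called gene was Rfx5, an RFX subunit, at 10.1 ± 0.85 FPKM in control and 12.6 ± 1.03 in MCT (SD, n = 4; log2 fold change 0.31, edgeR adjusted p 0.0378). That call was lost without control 1, control 2, control 4, MCT 1, MCT 2 or MCT 3 (adjusted p 0.0694 to 0.096), leaving 0 of 7, and limma called none; over all alternatives its adjusted p ran from 0.0199 to 0.115. The RFX subunits Rfxap (0.04) and Rfxank (-0.10), the NF-Y subunits Nfya (-0.24, unadjusted p 0.0199 by edgeR), Nfyb (-0.03) and Nfyc (-0.14), and Creb1 (-0.47, SE 0.24) did not pass. Of 13 upstream regulators of Ciita and of class II turnover, 4 were higher (Spi1, Irf8, Ifngr2 and Cd83) and 1 was lower (Irf1). Cd83, which keeps class II at the surface, was at 8.26, 6.05, 7.94 and 5.48 FPKM in the controls and at 11.9, 19.4, 17.2 and 13.5 in MCT. Its groups were apart (log2 fold change 1.15, SE 0.19, edgeR adjusted p 0.00342). The number higher was 1 without control 2, control 4 or MCT 2, and 2 without control 1 or MCT 3. Irf1, the interferon-induced activator of Ciita, fell from 47.4 ± 4.68 to 37.2 ± 3.55 FPKM (SD, n = 4; edgeR adjusted p 0.0356). That call was lost without control 2, control 3, MCT 2 or MCT 4 (adjusted p 0.069 to 0.0992, range over all alternatives 0.00662 to 0.0992).

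Of 7 tested genes of the interferon-gamma response, edgeR called none higher and only Irf1 lower, the call that depended on the 4 libraries just named. Without control 3, 2 were called higher. At an unadjusted p under 0.05, 2 were higher and 1 lower, and DESeq2 and limma each called 0 higher and 1 lower. Gbp2, a GTPase induced by interferon, was at 26.8 to 36.9 FPKM in the controls and 26.3 to 45.8 in MCT (log2 fold change 0.08). The chemokine Cxcl9 was at 1.81, 1.24, 7.02 and 1.70 FPKM in the controls and at 7.58, 8.32, 4.95 and 6.36 in MCT. Control 3 lay among the MCT values (log2 fold change 1.21, SE 0.53, edgeR adjusted p 0.146). The interferon-gamma gene itself did not pass the filter on low counts.

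**Figure D4:**
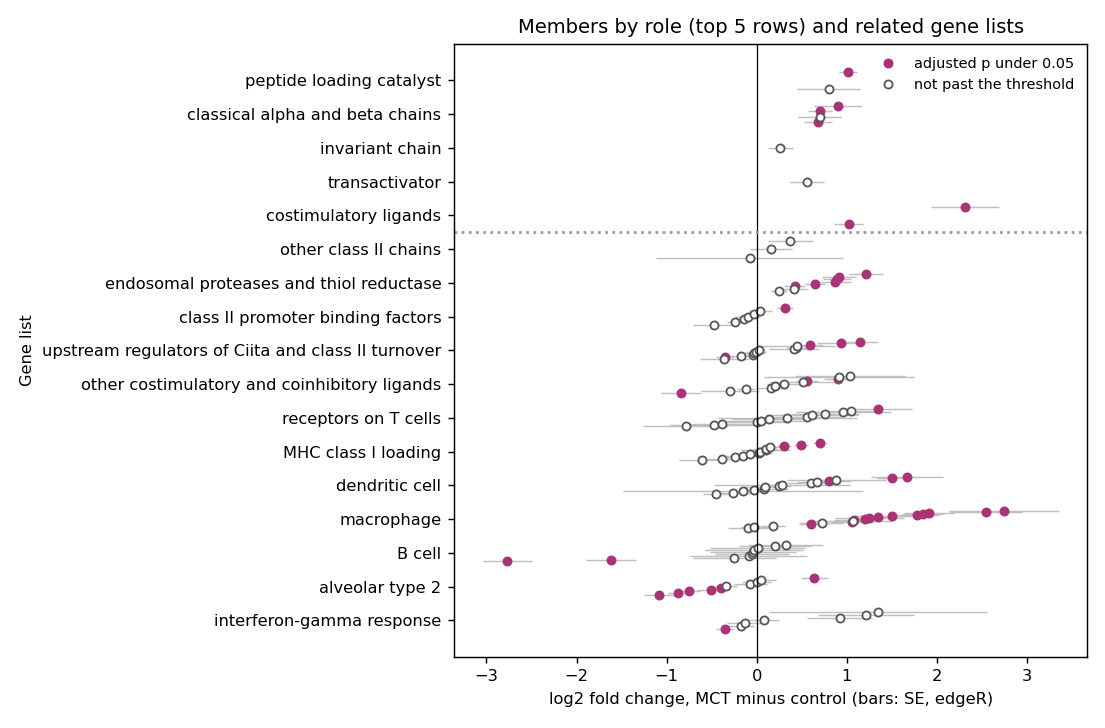
log2 fold change, MCT minus control, of each tested gene (x, bars are SE from edgeR) by gene list (y), with the 10 genes by role above the dotted line. Filled points have an adjusted p under 0.05. The endosomal enzymes lie right of 0, with 6 of 8 filled, and 1 of 7 promoter binding factors is filled.

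Other ligands that steer T cells did not move as a group. Of 11 tested, Pvr (log2 fold change 0.90, edgeR adjusted p 0.00437) and Cd276 (0.56, adjusted p 0.0121), both ligands found on many cell types, were higher. Lgals9, a galectin, was lower (-0.84, edgeR adjusted p 0.0261), a call lost without control 3, control 4, MCT 1, MCT 2 or MCT 4 (adjusted p 0.0546 to 0.0772, range over all alternatives 0.00096 to 0.0948). The B7 relatives Cd274 (0.30) and Icoslg (0.20) did not pass, and Cd40, which licenses antigen-presenting cells, was at 0.16 (SE 0.17). Cd28 and Ctla4, the receptors of Cd80 and Cd86, were under 1.4 FPKM in every library. Cd28 had a log2 fold change of -0.48 (SE 0.48) and Ctla4 of 0.05 (SE 0.47). Cd4, the coreceptor for class II, was at 6.69, 3.52, 12.2 and 4.86 FPKM in the controls and at 13.1, 13.9, 17.6 and 12.2 in MCT. Control 3 lay slightly above the lowest MCT library (log2 fold change 1.05, SE 0.34, edgeR adjusted p 0.0615). Of 13 receptors of this kind tested, 1 was called higher, Havcr2 (adjusted p 0.0305), and the number was 3 without control 3 and 0 without control 1, control 2, control 4, MCT 2 or MCT 3.

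Class I loading genes served as a comparison from the same field of biology. Of 13 tested, 3 were higher, the endoplasmic reticulum chaperones Calr (0.70, edgeR adjusted p 0.000694), Pdia3 (0.49, adjusted p 0.00281) and Canx (0.30, adjusted p 0.0352), which fold many other proteins. The call of Canx was lost without any of control 1, control 2, control 3, MCT 2, MCT 3 or MCT 4 (adjusted p 0.0635 to 0.0988, all within its range of 0.00512 to 0.0988). The median of the list was 0.04, near that of all genes. No gene of the list was called lower, except 1 without control 4, and 2 were lower at an unadjusted p under 0.05 by edgeR: Nlrc5 and Tapbp, the peptide editor of class I (-0.39, SE 0.16, adjusted p 0.116). Nlrc5, the class I counterpart of Ciita, was at 2.12, 2.27, 4.06 and 2.22 FPKM in the controls and at 1.52, 1.96, 2.21 and 1.33 in MCT (-0.61, SE 0.25, edgeR adjusted p 0.12).

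Whole lung mixes many cells, and more cells of a type cannot be told apart from more RNA per cell. Macrophage markers were higher in 12 of 17 tested and lower in none. Cd163 (log2 fold change 1.07), Mrc1 (0.72), Csf1r (0.18), Mertk (-0.03) and Lyz2 (-0.1) did not pass the threshold. C1qc, a subunit of complement C1q and the member with the smallest p, went from 48 ± 10.5 to 172 ± 48.2 FPKM (SD, n = 4). The summed level of that list was 13100 to 17700 FPKM in control and 11000 to 19400 in MCT, nearly all of it Lyz2. Of 14 dendritic cell markers, 3 were higher: Clec10a (1.5, edgeR adjusted p 0.000652), a lectin also found on macrophages, Xcr1 (1.67, adjusted p 0.0181) and Fscn1 (0.80, adjusted p 0.047). The call of Fscn1 was lost without control 2, control 3, control 4, MCT 2, MCT 3 or MCT 4 (adjusted p 0.0638 to 0.113, range over all alternatives 0.0104 to 0.113). The number higher was 1 without control 2, MCT 2 or MCT 3, and DESeq2 called 4 higher and 1 lower. The summed level of dendritic cell markers was 73.2 to 97.6 FPKM in control and 112 to 153 in MCT. Much of that difference was Clec10a, at a mean of 15.2 FPKM in control and 43.4 in MCT, so the sum does not show a rise across the list. Cd209a was listed at 0 in all libraries. Zbtb46 and Flt3, also on the dendritic cell list, had log2 fold changes of -0.45 and 0.60 and did not pass. Zbtb46 was nevertheless lower in all MCT libraries (4.26 to 6.53 FPKM) than in any control (6.6 to 8.79). Of 6 genes of all leukocytes, 1 was higher (Cd53), or 2 without control 3 or MCT 1, and Ptprc was at 0.13 (SE 0.14). The part of these cells in the class II values was not tested.

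B cell markers, of which 10 were tested, were lower for Bank1 and Spib and summed to 25.6 to 85.1 FPKM in control and 24 to 49.9 in MCT. The B cell surface gene Ms4a1 had a log2 fold change of -0.03 (SE 0.54). Alveolar type 2 markers, another class II source, were lower for 5 of 10 and higher for 1. They summed to 29000 to 37600 FPKM in control and 20900 to 27200 in MCT. Most of that sum was Sftpc, at a mean of 21500 FPKM in control and 15200 in MCT. Sftpb (log2 fold change -0.34), Sftpa1 (-0.07), Sftpd (0.05) and Lpcat1 (0.0) did not pass the threshold. The number lower was 3 without control 2, control 3, MCT 3 or MCT 4, and the higher gene, Lamp3, also marks mature dendritic cells (log2 fold change 0.64, edgeR adjusted p 0.0177); its call was lost without control 4. Monocyte markers were higher for 2 of 6, Vcan (1.79, adjusted p 0.00357) and Cd14 (0.62, adjusted p 0.0447), the latter lost without control 1, control 2, control 4, MCT 1, MCT 2 or MCT 4.

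Counts stood for 10.8 to 18.1 M read pairs per library. MCT 1 and control 1 stood apart from the rest on the second principal component of log2 CPM, and MCT 1 had the highest summed cardiac markers (173 FPKM against 32.7 to 74.1 elsewhere). With both left out, 6 of the 10 genes were still called higher, and with control 4 and MCT 1 left out, the libraries apart for RT1-DMb and RT1-Bb and a choice made after seeing the data, the number was also 6. Leaving out any 1 library gave 4 (without MCT 2) to 7 (without MCT 4) of the 10. The endothelial list had 4 of 9 lower and 1 higher, the NK cell list 4 of 8 lower, and the T cell list 1 of 10 in each direction. The alveolar type 1 list had 2 of 8 lower, or 1 without control 2, control 3, control 4, MCT 2 or MCT 4. The cardiac list had 1 of 9 higher, or 0 without control 1, control 2, control 3, MCT 1, MCT 3 or MCT 4, and 1 lower without control 1. In the ciliated list none of 8 was called by edgeR, DESeq2 or limma or had an unadjusted p under 0.05, and 1 was called lower without MCT 1.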

How the data were processed

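Lung RNA of 4 MCT and 4 control libraries was compared. Per the submitters' processing notes, cutadapt 1.9, HISAT2 2.0.4, StringTie 1.3.4d and edgeR were used with the Rnor_6.0 build; order and settings are not given in the sources used here. The deposited table gives estimated counts (whole numbers; 1 read pair is worth about 3.67 of them, from the spacing of low values) and FPKM values per gene, per the file headers. From the counts, edgeR 4.0.16 (R 4.3.3) computed the comparison: filterByExpr (minimum count 10), TMM, robust quasi-likelihood fit, Benjamini-Hochberg over 16715 genes, threshold 0.05, two-sided. FPKM served for levels and ratios. Alternatives used limma 3.58.1, DESeq2 1.42.0, other scalings, filters, constants, a replicate block and left-out libraries. Members and lists were chosen with earlier results of these data known. Apart from the 10 genes, the called members of each of 7 pathway and 13 marker lists with the 3 smallest p were to be named. Where none was called, the most abundant member was to be named. The 5 genes most like Cd74 (mean FPKM at least 2) were to be added. Not all of these genes are named above: for the endothelial and NK cell lists, among others, only counts are given. Other genes were named after their values were seen. The fit was tested on simulated data. It recovered 13.1% of 1.5-fold, 48.1% of 2-fold and 79.5% of 4-fold changes, and 5.79% of its calls were false. The simulated sets held far fewer changed genes than the 1845 higher and 1579 lower called in the real data. The adjustment for many genes depends on that number, so these shares need not hold for the real fit. A gene that did not pass may still differ between the groups. No 2 libraries of a group were duplicates (chi-square per gene at least 15.1).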

Additional observations from a re-analysis of the deposited data

Results flagged for a closer look

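Among 104 sets of 4 libraries examined (1 gene in 1 group each, on log2 CPM), 1 library lay far from the other 3 in 5 sets, where chance gives about 5.2. 1 of the 10 genes was among them: RT1-Db1 in MCT, where MCT 4 was at 57.9 FPKM against 70.8 to 76.7 in the others, a gap of 0.841 of the range of the group. MCT 4 was also the lowest MCT library for RT1-Da, RT1-Ba, Ciita and Cd74, with gaps under the critical value. The larger differences that the values show by eye, RT1-DMb in control 4 (gap 0.776) and RT1-Bb in MCT 1 (gap 0.62), also stayed under it. The other 4 were Ifi30 in MCT 2 (160 FPKM against 111 to 120, gap 0.842), Cd53 in control 3 (26.8 against 17.1 to 18.8, gap 0.85), Ramp2 in MCT 2 (250 against 302 to 320, gap 0.866) and Spib in control 2 (4.94 against 10.2 to 10.7, gap 0.896).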

How the results depend on the processing

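All 200 fold changes of the 10 genes under alternatives were positive; 175 kept their side of the threshold, 15 lost the call (RT1-Bb and RT1-Da) and 10 gained one (RT1-DMb, RT1-Ba and Ciita). The number of the 10 called higher was 4 to 7 with 1 library left out, 5 with no filter or with limma, and 9 with DESeq2. Over all genes, leaving out 1 library gave 1191 to 1946 higher and 975 to 1730 lower, with the lowest values without MCT 2. Same-numbered libraries varied together little (correlations of -0.0848 to 0.11), which cannot exclude that the numbers pair them. Control 1 was most like MCT 1 (0.11), and both stood on the same side of the second principal component. With a replicate block 7 of the 10 were higher. No ratio had an adjusted p under 0.05 in any of 112 alternatives, but with a library left out (smallest p 0.0571, or 0.1 without 1 of each group) or the replicate block (0.125) that test cannot pass 0.05. The ratio of Cd86 to Cd80 moved with the added constant, from -1.02 to -0.35 with 0.5 and -1.43 with none, the former shift larger than the spread between libraries. With the replicate block the ratio of Cd74 to RT1-Da differed by -0.41 (exact sign-flip adjusted p 0.5). Summing the rows of a symbol changed nothing, since no listed symbol had more than 1 row. Low read numbers limit Cd80.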
